A study of Mus musculus with 12 samples.

Results

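The right and left ventricles of adult mice were compared at 3 weeks after operation, with obstruction of the outflow tract taken into account, to find genes whose level differed between the chambers whether or not the chamber was obstructed. The comparison used 8 of the 12 arrays of the series, 4 from right and 4 from left ventricles. A gene was taken to keep its chamber difference when it passed the test for chamber with obstruction as a term and when both right arrays lay on the same side of both left arrays among the sham samples and again among the obstructed samples.

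All mice were male C57BL/6 mice without a genetic change named in the labels. At 3 weeks they were 15 weeks old and made up 4 groups of 2 arrays each: sham right ventricle, right ventricle with a clip on the pulmonary artery (PAC), sham left ventricle, and left ventricle with a constricted aorta (TAC). Both obstructions used Weck haemoclips, and the hearts were perfused and divided into left ventricle, septum and right ventricle. The other 4 arrays were right ventricles 1 week (age 13 weeks) and 6 weeks (age 18 weeks) after clipping, with 2 arrays each, and have no sham or left ventricle of their own time. Nothing in the labels ties an array to its own animal, or says if the sham right and sham left tissue was taken from shared hearts. The p-values then measure only how far these arrays scatter, which may be technical. The obstruction term treats the pulmonary and the aortic clip as 1 condition, and no pressure was given with the arrays.

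The ventricles arise from different fields of progenitor cells. The left ventricle comes mainly from the first heart field and the right ventricle mainly from the second, and transcription factors such as Hand1, Hand2, Tbx5 and the Iroquois family take part in their patterning. In the adult the left ventricle pumps against systemic pressure and has a thick wall, and the right ventricle pumps against the lower pressure of the lungs. Fetal and load-responsive genes such as Nppa, Nppb, Myh7 and Acta1 are known to be induced when either wall is stressed, so a chamber difference in these genes can depend on the load of each side.

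Levels are log2 expression values, and a difference of 1 is a 2-fold difference. Differences are right minus left ± the standard error from limma (n = 4 arrays a side), so negative values are higher in the left ventricle. Array mates correlated at 0.995 to 0.997 across 19938 genes, and the lowest correlation between any 2 of the 8 arrays was 0.985. The median standard error of the chamber difference was 0.081. The 15 cardiomyocyte markers averaged between 13.35 and 13.41 on every right ventricle array and between 13.39 and 13.41 on every left one. These means lie near the top of all values, which ended at 14.78. Atrial muscle markers varied: the mean of Myl7, Myl4, Sln and Bmp10 was 6.67 and 5.86 in sham right, 7.66 and 9.30 in clipped right, 7.12 and 8.53 in sham left, and 7.55 and 7.29 in constricted left ventricles. Bmp10, an atrial growth factor, read 8.79 on the second clipped array and 4.28 to 4.64 on the other 7. The second clipped and the second sham left array therefore stood above their mates, and results are also given without them. In whole tissue, fewer cells of a type and less RNA per cell cannot be told apart.

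A total of 26 genes passed the test for chamber at an adjusted p of 0.05, which is 0.130% of all genes. They were 6 genes higher in the right ventricle (0.0301% of all genes) and 20 higher in the left (0.100%). The size ran from 0.44 to 1.89 on the log2 scale, that is from 1.36-fold to 3.71-fold, with a median of 0.647. Nrn1, Bex1 and Myot differed by more than 1. At an unadjusted p under 0.05 there were 2988 genes, 15.0% of all (6.42% right-higher and 8.57% left-higher). The largest left-higher differences were those of Nrn1, Bex1, Myot, Lgi1 and Mybpc2, and the largest right-higher ones those of Slit2, Mstn and Sort1. All 26 had both right arrays on the same side of both left arrays in sham and in obstructed ventricles. The residual of this fit contains any change of the difference between states, so genes with opposite or very unequal differences rarely pass, and nothing is read from the count of 26. Over all genes, 5.78% had both right arrays above both left arrays in each state and 8.61% had them below.

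**Figure D1:**
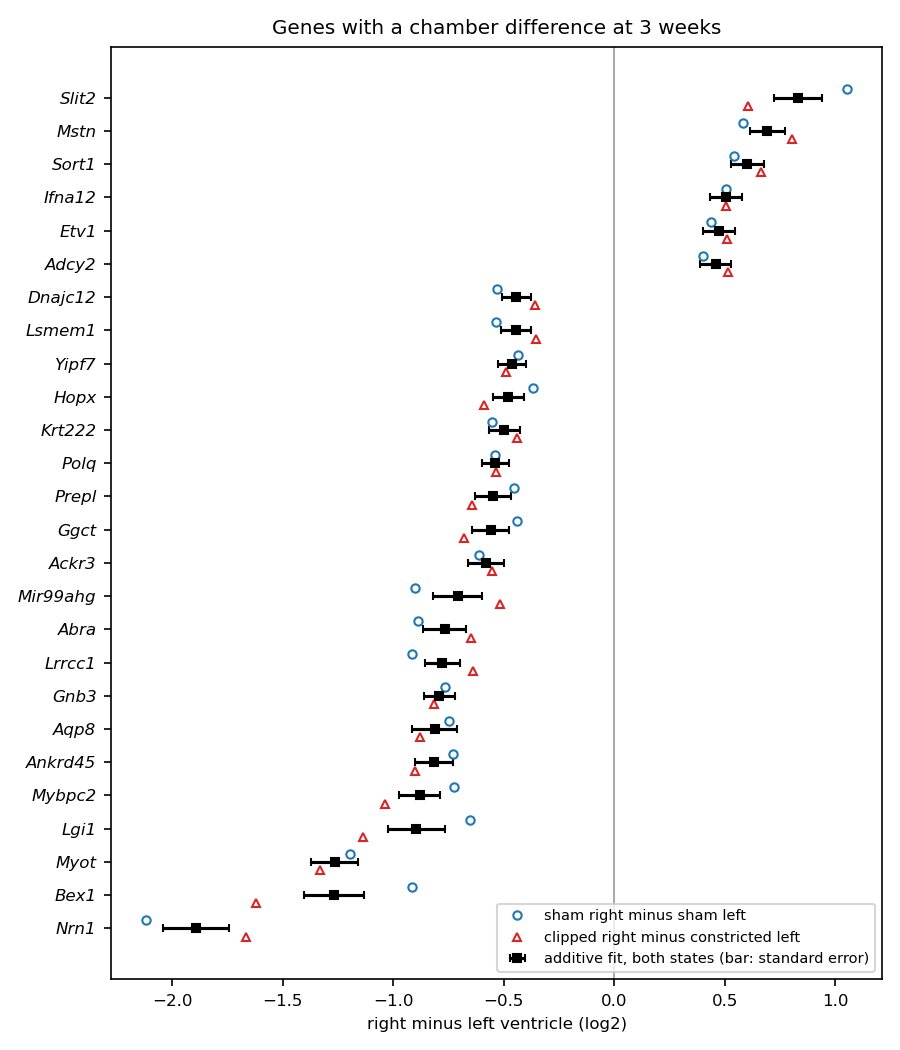
Right minus left difference on the log2 scale for the 26 genes that passed, with the additive fit as squares with standard error bars, sham alone as circles and obstructed alone as triangles. The 6 right-higher genes lie between 0.46 and 0.83 and the 20 left-higher genes between -0.44 and -1.89, and the circles and triangles of a gene lie on the same side of 0.

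The sequence before the start of the gene is shown for the right-higher and left-higher genes with the largest differences that have an entry among the RefSeq promoters (build GRCm38.p6) to show the regulatory context of the genes compared. No factor was assayed, and each window covers 250 bases. Coordinates are chr5:47982905-47983154 (plus strand) for Slit2, chr1:53061390-53061639 (plus strand) for Mstn, chrX:136215514-136215763 (minus strand) for Bex1 and chr19:38264437-38264686 (plus strand) for Lgi1, all ending at the base before the annotated start. Capitals mark the E-box CANNTG, the site of basic helix-loop-helix factors such as the Hand proteins, and the GATA site, searched as GATA with A or T before it and A or G after it, both on either strand.
Slit2: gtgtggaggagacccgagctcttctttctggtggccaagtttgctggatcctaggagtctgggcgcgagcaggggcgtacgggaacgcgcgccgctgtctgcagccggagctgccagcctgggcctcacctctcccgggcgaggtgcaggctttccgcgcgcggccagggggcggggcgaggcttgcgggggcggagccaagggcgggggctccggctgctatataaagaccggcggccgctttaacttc
Mstn: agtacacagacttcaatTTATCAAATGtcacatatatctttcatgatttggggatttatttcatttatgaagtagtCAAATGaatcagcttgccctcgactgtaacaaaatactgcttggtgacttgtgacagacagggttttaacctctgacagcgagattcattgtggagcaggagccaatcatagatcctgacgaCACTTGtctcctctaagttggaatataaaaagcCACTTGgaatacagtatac
Bex1: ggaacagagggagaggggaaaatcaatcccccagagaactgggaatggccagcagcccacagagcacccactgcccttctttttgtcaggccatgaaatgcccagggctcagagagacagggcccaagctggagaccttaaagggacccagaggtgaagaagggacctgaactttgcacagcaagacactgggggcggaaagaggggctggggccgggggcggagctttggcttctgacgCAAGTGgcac
Lgi1: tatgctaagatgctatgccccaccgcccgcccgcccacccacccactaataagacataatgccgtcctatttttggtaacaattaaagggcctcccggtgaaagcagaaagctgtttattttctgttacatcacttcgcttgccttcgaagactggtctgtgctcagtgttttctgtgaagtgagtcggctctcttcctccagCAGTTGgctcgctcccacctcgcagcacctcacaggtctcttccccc
The Mstn window held 4 E-boxes and 1 GATA site, and the first E-box overlaps the GATA site in the first run of capitals. Bex1 and Lgi1 had 1 E-box each and Slit2 had none of these letters. Of 17 of the 26 genes with a promoter entry, 9 held an E-box, 1 a GATA site and 0 the T-box half-site GGTGTGA, while 66.2%, 26.5% and 3.33% of 32851 promoters of this length held them. A match describes letters only.

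Nrn1, which encodes neuritin, a membrane-anchored protein that promotes neurite growth, had the largest difference of the 26. It read 6.18 and 6.15 in sham right, 6.39 and 7.04 in clipped right, 8.18 and 8.38 in sham left, and 8.23 and 8.54 in constricted left ventricles. Every left array was above every right array, and the nearest right and left arrays were 1.14 apart. The difference was -1.89 ± 0.15 (3.71-fold, adjusted p = 0.003), with -2.12 in sham and -1.67 in obstructed ventricles.

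Bex1, a small X-linked adaptor protein first described in brain, read 4.11 and 3.99 in sham right, 4.25 and 4.30 in clipped right, 5.03 and 4.90 in sham left, and 5.75 and 6.05 in constricted left ventricles. The difference was -1.27 ± 0.14 (adjusted p = 0.0084). It was -0.92 in sham and -1.62 in obstructed ventricles, the constricted left arrays being the highest. The test of that gap between states gave -0.71 ± 0.16 (adjusted p = 0.18, limma interaction). Its right ventricle and sham left values all lay below 5.65, the lowest array median of the probe sets that the annotation does not list. The 2 constricted left arrays read above it, so the sham difference was measured close to the arrays' background and no fold is given.

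Lgi1 encodes a secreted leucine-rich repeat protein of synapses. Its values were 7.27 and 7.49 in sham right, 6.84 and 6.74 in clipped right, 7.94 and 8.14 in sham left, and 8.16 and 7.69 in constricted left ventricles. The difference was -0.90 ± 0.13 (1.86-fold, adjusted p = 0.047), with the clipped right arrays the lowest of the 8.

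**Figure D2:**
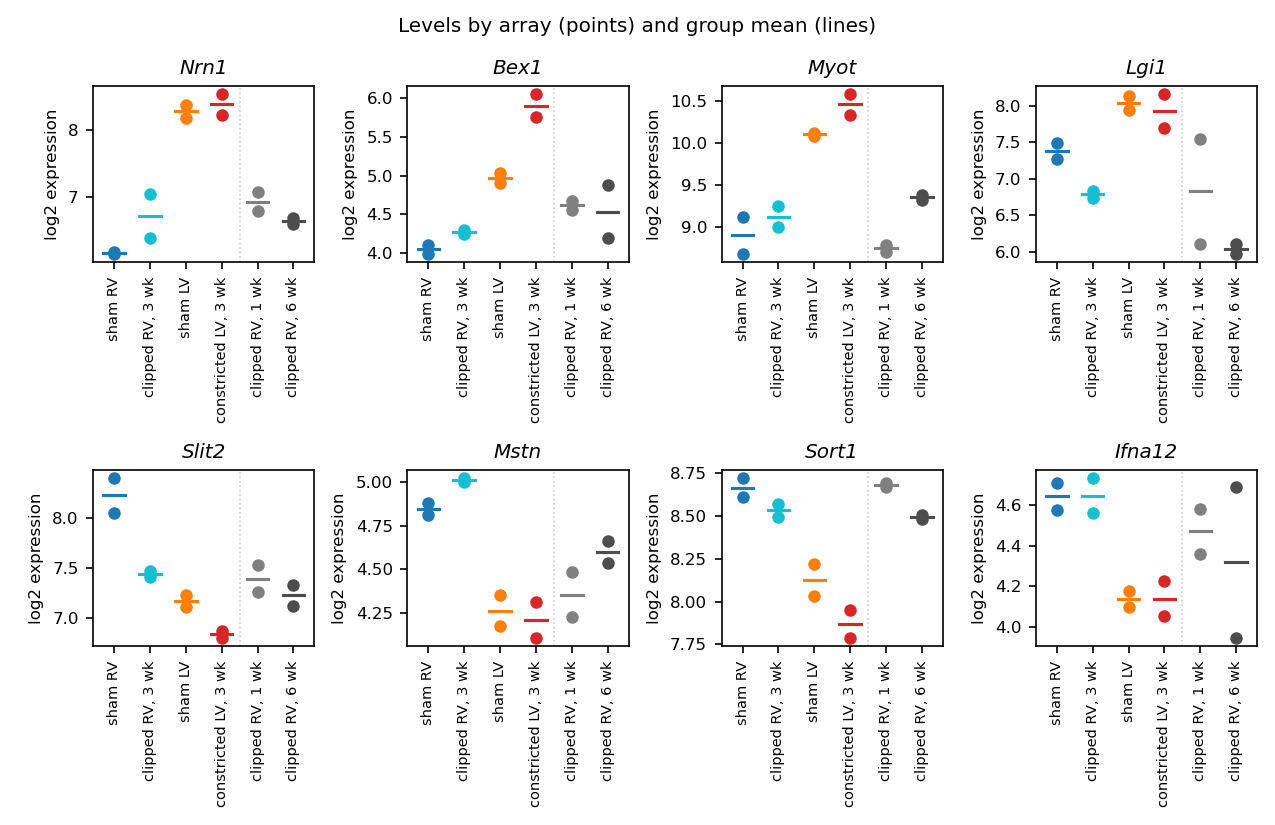
Log2 expression on each array (points) and group mean (lines) of 4 left-higher genes (upper row) and 4 right-higher genes (lower row), with the right arrays of 1 and 6 weeks after the dotted line and a separate vertical scale for each gene. Left of the dotted line, right and left ventricle points do not overlap in any of the 8 panels. Sort1 lies above all left arrays at 1 and 6 weeks too, from 8.48 to 8.69, while Ifna12 spreads from 3.95 to 4.69.

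Myot encodes myotilin, a protein of the Z-disc that crosslinks actin. It read 8.68 and 9.12 in sham right, 9.0 and 9.25 in clipped right, 10.08 and 10.12 in sham left, and 10.58 and 10.34 in constricted left ventricles. The difference was -1.27 ± 0.11 (2.40-fold, adjusted p = 0.0034), with -1.20 in sham and -1.33 in obstructed ventricles, and the nearest right and left arrays were 0.83 apart.

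Mybpc2, the fast skeletal form of myosin-binding protein C, read 6.77 and 6.97 in sham right, 7.46 and 7.51 in clipped right, 7.65 and 7.55 in sham left, and 8.64 and 8.40 in constricted left ventricles. The level was higher in the obstructed than in the sham group of each chamber, and the clipped right arrays came within 0.04 of the sham left arrays. Within each state the chambers were apart, by -0.72 in sham and -1.04 in obstructed ventricles. The difference was -0.88 ± 0.09 (1.84-fold, adjusted p = 0.0079).

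Abra, an actin-binding protein of striated muscle, showed the same arrangement. It read 8.32 and 8.51 in sham right, 9.27 and 9.03 in clipped right, 9.15 and 9.45 in sham left, and 9.72 and 9.86 in constricted left ventricles. The clipped right arrays overlapped the sham left arrays, so the chambers separated within a state and not over all 8 arrays. The difference was -0.77 ± 0.10 (1.7-fold, adjusted p = 0.024).

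Hopx, a homeodomain-only protein that restrains serum response factor in heart muscle, was arranged the other way with obstruction. It read 9.21 and 9.08 in sham right, 8.62 and 8.54 in clipped right, 9.54 and 9.49 in sham left, and 9.17 and 9.17 in constricted left ventricles. The obstructed group was the lower one in each chamber, and the highest right array lay above the lowest left arrays. The difference was -0.48 ± 0.07 (1.39-fold, adjusted p = 0.047).

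Gnb3, a beta subunit of heterotrimeric G proteins, had similar values in the sham and obstructed groups of a chamber. It read 6.58 and 6.59 in sham right, 6.57 and 6.83 in clipped right, 7.38 and 7.32 in sham left, and 7.49 and 7.55 in constricted left ventricles. The difference was -0.79 ± 0.07 (1.73-fold, adjusted p = 0.0039), with -0.77 in sham and -0.82 in obstructed ventricles.

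Lrrcc1, a centrosomal coiled-coil protein, and Aqp8, a water channel, were each higher on the left by about the same size and were highest in the constricted ventricle. Lrrcc1 read 6.73 and 6.92 in sham right, 7.62 and 7.64 in clipped right, 7.77 and 7.71 in sham left, and 8.21 and 8.33 in constricted left ventricles, a difference of -0.78 ± 0.08 (adjusted p = 0.0079). Aqp8 read 5.90 and 6.04 in sham right, 6.74 and 6.50 in clipped right, 6.62 and 6.81 in sham left, and 7.31 and 7.69 in constricted left ventricles, a difference of -0.81 ± 0.10 (adjusted p = 0.019). For Aqp8 the first clipped right array lay above the first sham left array, as for Abra. Ankrd45, an ankyrin repeat protein, ran from 5.53 to 5.98 on the right and from 6.24 to 6.74 on the left (-0.82 ± 0.09, adjusted p = 0.0079).

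Among the other left-higher genes, Ackr3, the scavenger receptor of the chemokine Cxcl12, ran from 6.57 to 7.12 on the right and from 7.24 to 7.65 on the left (-0.58 ± 0.08, adjusted p = 0.042). Ggct, an enzyme of glutathione breakdown, differed by -0.56 ± 0.08 and the peptidase-like gene Prepl by -0.55 ± 0.08 (adjusted p = 0.047 each). Polq, the DNA polymerase of an end-joining repair pathway, read 6.30 to 6.47 on the right and 6.84 to 6.93 on the left, and its difference was -0.54 in sham and -0.54 in obstructed ventricles (adjusted p = 0.013 over both). The chambers did not overlap for any of these 4 genes.

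Mir99ahg, the long transcript that hosts a microRNA cluster, was higher on the left by 0.71 ± 0.11 (adjusted p = 0.050), and this rests on 1 of its 4 probe sets. The other 3 differed by -0.14, -0.04 and -0.15, and the mean over the probe sets differed by -0.26. Etv1 was the other gene of the 26 with several probe sets, and both of them pointed the same way (0.47 and 0.51).

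The remaining 4 left-higher genes fell, with Hopx, below the 15 largest differences that the naming rule takes, and are named here because they complete the 20. Krt222, a keratin gene, differed by -0.50 ± 0.07, the Golgi membrane gene Yipf7 by -0.46 ± 0.06, Lsmem1 by -0.45 ± 0.07 and the co-chaperone Dnajc12 by -0.44 ± 0.07. Their adjusted p-values were 0.047, 0.041, 0.047 and 0.047, and right and left arrays did not overlap in any of them.

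Slit2 had the largest right-higher difference. It encodes a secreted guidance ligand of Robo receptors, used by axons and by the developing heart. It read 8.40 and 8.06 in sham right, 7.48 and 7.42 in clipped right, 7.24 and 7.12 in sham left, and 6.88 and 6.80 in constricted left ventricles. The obstructed group was the lower one on each side, and every right array was above every left array, by 0.18 at the nearest. The difference was 0.83 ± 0.11 (1.78-fold, adjusted p = 0.025), with 1.05 in sham and 0.61 in obstructed ventricles.

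Mstn encodes myostatin, a ligand of the TGF-beta family that limits muscle growth. It read 4.81 and 4.88 in sham right, 5.02 and 5.0 in clipped right, 4.35 and 4.18 in sham left, and 4.11 and 4.31 in constricted left ventricles. The difference was 0.69 ± 0.08 (adjusted p = 0.013), and the nearest right and left arrays were 0.46 apart. All 8 values lay below 5.65, the lowest array median of unlisted probe sets, which also held for Ifna12 and, but for the second sham right array, for Adcy2. These 3 genes read close to the background of the arrays, and no fold is given for them.

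Sort1, the sorting receptor sortilin, read 8.72 and 8.61 in sham right, 8.49 and 8.57 in clipped right, 8.03 and 8.22 in sham left, and 7.95 and 7.79 in constricted left ventricles. Its difference was 0.60 ± 0.07 (1.52-fold, adjusted p = 0.019). Etv1, an ETS transcription factor of fast-conducting cardiomyocytes, ran from 8.15 to 8.42 on the right and from 7.65 to 7.95 on the left (0.47 ± 0.07, adjusted p = 0.047). Right and left arrays did not overlap for either gene.

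Ifna12, an interferon alpha gene, ran from 4.56 to 4.73 on the right and from 4.05 to 4.23 on the left (0.51 ± 0.07, adjusted p = 0.046). It belongs to a family of near-identical copies, so its probes may report several of them. Adcy2, an adenylyl cyclase, ran from 5.53 to 5.73 on the right and from 5.01 to 5.25 on the left (0.46 ± 0.07, adjusted p = 0.050).

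The difference under obstruction was larger than in sham for 16 of the 26 genes and smaller for 10, with a median ratio of 1.12 and a range from 0.576 to 1.77. No gene of the 26 passed the test of that change, the lowest adjusted p being 0.18 (limma interaction). The additive fit that chose these genes counts such a change as residual, so the ratios and this result follow in part from the choice. Over all 8 arrays, 23 of the 26 genes had every right array on one side of every left array, and the exceptions were Aqp8, Abra and Hopx. Of all 19938 genes the same held for 506 with the right arrays above and 971 with them below. The 26 were chosen by their chamber difference on the same arrays, so their separation follows in part from the choice and is no further evidence. An exact permutation of chamber labels within each state has 36 labelings and cannot give a two-sided p below 0.0556 for any single gene, so the gene p-values rest on limma's pooled estimate of spread.

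The number of genes depended on single arrays. Without the first or second constricted array it was 13 or 8, without the first or second sham left array 15 or 8, without the first or second clipped array 8 or 42, and without the first or second sham right array 10 or 4. Without the second clipped and second sham left arrays, those with the higher atrial markers, 5 genes passed, 4 of them from the 26, namely Nrn1 (-2.01), Myot (-1.32), Ankrd45 (-0.93) and Gnb3 (-0.87). All 26 kept their direction in each of these fits, which the array separation in both states fixed in advance. Nrn1, Myot and Gnb3 passed in all 18 alternative fits, at a highest adjusted p of 0.021, 0.045 and 0.049.

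The states were then taken apart, with 1 mean for each group. Sham right and sham left ventricles differed in 124 genes (0.622% of all), 28 higher on the right and 96 on the left. Clipped right and constricted left ventricles differed in 22 genes (0.110%), 12 higher on the right and 10 on the left. These contrasts share no array. They had 8 genes in common, 6.45% of the sham genes and 36.4% of the obstructed genes, and 7 of them had the same direction. An exact permutation of 2 against 2 arrays cannot go below 0.33 for a gene within a state.

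Of the 124 genes called in sham, 92 (74.2%) had the same direction under obstruction and 71 (57.3%) had arrays that separated the same way there. Over all genes, taken by their direction in sham, these shares were 52.1% and 23.8%. The left-higher genes of sham kept their direction in 79 of 96 cases, the right-higher genes in 13 of 28. Of the 22 genes called under obstruction, 13 (59.1%) had the same direction in sham and 11 (50.0%) separated the same way, beside 52.1% and 30.1% of all genes. The share with the same direction depended on single arrays. For the sham genes, where any were called, it ran from 49.3% without the first clipped array to 84.6% without the second sham right array. For the obstructed genes it ran from 35.7% without the second sham left array to all without the first constricted array. Some of these fits called very few genes. The share over all genes was taken from all 8 arrays only, so these shares are not set against it. With all 8 arrays, the right-higher genes called under obstruction kept their direction in 5 of 12 cases and the left-higher ones in 8 of 10. Both counts depended on single arrays. Leaving out each array in turn gave 0 to 142 genes in sham (6 or 0 without the first or second sham left array, 35 or 13 without the first or second sham right array, 13 without either constricted array) and 1 to 88 under obstruction (88 or 2 without the first or second clipped array, 1 or 9 without the first or second constricted array, 3 without either sham right array). Without the second sham left array, where limma called 0 genes in sham, 3844 had an unadjusted p under 0.05. Without the second clipped and second sham left arrays 5 genes were called in sham and 1 under obstruction.

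The median size of the sham genes was 0.61 in sham and 0.13, signed by their sham direction, under obstruction, and the 22 genes went from 1.00 under obstruction to 0.13 in sham. A gene selected for size in a contrast has a larger value there than elsewhere by selection alone, so these medians are a description.

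Across all genes the differences in the 2 states correlated at 0.055, with different arrays on each side and the genes of an array not independent. Of the 26 genes, 14 were called in sham, 8 under obstruction, 7 in both and 11 in neither. A looser rule, an unadjusted p of 0.05 in each state with the same direction, was met by 386 genes (1.94%).

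**Figure D3:**
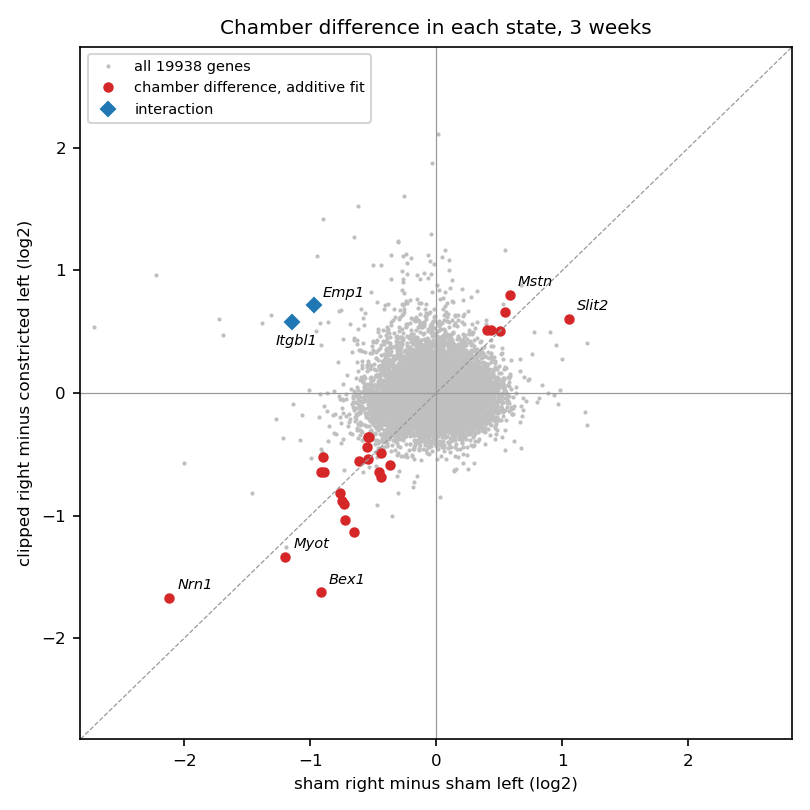
Difference of sham right and sham left ventricles (horizontal) against that of clipped right and constricted left ventricles (vertical), both on the log2 scale, for all genes in grey, the 26 genes in red and the 2 genes of the interaction in blue. The red points lie near the dashed line of equal difference, which the additive fit that chose them favours, with Bex1 at -0.92 and -1.62. Emp1 and Itgbl1 lie in the quadrant of opposite direction.

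The test of a change of the chamber difference with obstruction passed for 2 genes (0.0100% of all), both opposite in direction between the states. This count was not stable: it was 99 without the first clipped array, 15 without the second sham left array and 0 without either sham right array, and 28 when genes under the median level were dropped and 124 with a trended and robust variance prior. Emp1, a tetraspan membrane protein, read 8.67 and 8.68 in sham right, 10.58 and 10.72 in clipped right, 9.65 and 9.64 in sham left, and 9.88 and 9.98 in constricted left ventricles. It was lower on the right in sham (-0.97) and higher on the right under obstruction (0.72), a change of 1.68 ± 0.12 (adjusted p = 0.0043). Itgbl1, a secreted integrin beta-like protein, read 7.14 and 7.05 in sham right, 9.11 and 9.27 in clipped right, 8.32 and 8.17 in sham left, and 8.52 and 8.70 in constricted left ventricles, a change of 1.72 ± 0.15 (adjusted p = 0.0086). The additive fit gave these genes -0.13 ± 0.27 and -0.28 ± 0.28, in which the opposite differences nearly cancel. Neither passed when all 12 arrays were fitted (adjusted p = 0.35 each) or without the first (0.074 and 0.0996) or second (0.072 and 0.14) sham right array. Itgbl1 also did not pass without the first constricted (0.054) or first sham left array (0.070), or without the second clipped and second sham left arrays together (0.056).

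Several cell type markers moved the same way as these genes. The median of 12 atrial markers was -0.60 in sham and 0.51 under obstruction, with array means from 7.30 to 9.08 on the right and from 7.91 to 8.75 on the left. The median of 18 fibroblast markers was -0.17 in sham and 0.47 under obstruction, with array means from 8.99 to 10.05 on the right and from 9.04 to 9.45 on the left. Without the second clipped and second sham left arrays these medians were -0.27 and 0.15 for atrial markers and -0.36 and 0.46 for fibroblast markers. Their part in the change of Emp1 and Itgbl1 was not tested.

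The classical load genes are given by state. None of them passed the test of a change between states (limma interaction, adjusted p = 0.16 for Nppa, 0.20 for Nppb, 0.28 for Myh7, 0.45 for Acta1 and 0.99 for Myh6). Nppa, the atrial natriuretic peptide gene, read 10.98 and 10.68 in sham right, 13.05 and 13.59 in clipped right, 12.05 and 13.00 in sham left, and 12.54 and 13.16 in constricted left ventricles. The sham right arrays were the lowest, and the difference was -1.69 in sham and 0.47 under obstruction (-0.61 ± 0.40 over both, adjusted p = 0.50). Nppb, the B-type natriuretic peptide gene, differed by -2.0 in sham, which passed within that state (adjusted p = 0.032), and by -0.57 under obstruction (-1.29 ± 0.29, adjusted p = 0.12).

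Acta1, skeletal alpha-actin, read 9.91 and 10.90 in sham right and 12.02 and 11.71 in sham left, and 12.65 and 12.18 in clipped right and 13.29 and 13.16 in constricted left ventricles. Both right arrays were below both left arrays in each state, and the difference of -1.14 ± 0.21 missed the threshold (adjusted p = 0.089). Myh7, the slow myosin heavy chain, differed by -1.13 in sham and -0.09 under obstruction (-0.61 ± 0.25, adjusted p = 0.29). Myh6, the adult fast myosin heavy chain, lay between 13.68 and 13.80 on all 8 arrays, with a difference of 0.01 ± 0.06 (limma, adjusted p = 0.94). These levels lie near the top of all values, which ended at 14.78, and do not show that Myh6 was equal. Of 20 load-responsive genes measured, 0 passed in limma, and 11 had an unadjusted p under 0.05 with the left higher, beside 8.57% of all genes. In 7 the right arrays were below the left arrays in both states, beside 8.61% of all genes. The median was -0.43 in sham and -0.07 under obstruction. Without the second clipped and second sham left arrays these medians were -0.48 and -0.12.

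Of 35 chamber patterning factors measured in the adult ventricles, 0 passed in limma in either direction, which does not show that their levels were equal. An unadjusted p under 0.05 was found for 8 (6 right-higher, 2 left-higher), beside 15.0% of all genes. The difference was positive for 26, and the median was 0.08 beside 0.01 over all genes, of which 54.3% were positive. Hand1, which marks the embryonic left ventricle, differed by -0.03 ± 0.08 (adjusted p = 0.89), and the sign turned when some arrays were left out. Hand2, which marks the embryonic right ventricle, differed by 0.16 ± 0.09 (adjusted p = 0.43), with 0.34 in sham and -0.03 under obstruction, and Tbx5 by 0.20 ± 0.08 (adjusted p = 0.29). Irx5, an Iroquois factor that represses Kcnd2 across the ventricular wall, had the largest difference of the list. It read 6.68 to 6.98 on the right and 7.24 to 7.67 on the left without overlap, and -0.61 ± 0.11 missed the threshold (adjusted p = 0.080). Hey2, a Notch target of compact myocardium, differed by 0.32 ± 0.08 (adjusted p = 0.17).

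Kcnd2, a channel subunit of the transient outward potassium current, had the largest difference of 29 potassium channel genes, in the opposite direction to Irx5. It read 9.57 and 9.33 in sham right, 8.99 and 8.58 in clipped right, 8.76 and 8.59 in sham left, and 8.34 and 8.24 in constricted left ventricles. The chambers separated within each state. The second clipped array read 8.5849, just under the second sham left array at 8.5857 and further under the first at 8.76. The difference of 0.64 ± 0.11 missed the threshold (limma, adjusted p = 0.067). None of the potassium channel genes passed in limma, and the list median was 0.02. None of 17 sodium, calcium and pacemaker channel and connexin genes passed either (median 0.07). An unadjusted p under 0.05 was found for 6 of the 29 and 4 of the 17, beside 15.0% of all genes.

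Of 42 sarcomere and Z-disc genes measured, 1 passed in limma, Mybpc2, and it was higher on the left, beside 0.100% of all genes. An unadjusted p under 0.05 was found for 14, of which 13 left-higher and 1 right-higher, beside 15.0%, 8.57% and 6.42% of all genes. The list had 33 negative and 9 positive differences, beside 54.3% positive over all genes, with a median of -0.05. In both states 10 genes separated with the left higher and 1 with the right higher, beside 8.61% and 5.78% of all genes. Myot was not placed on this list. Mylk4, a myosin light chain kinase of striated muscle, differed by -0.45 ± 0.08 (adjusted p = 0.085) and Xirp2, an actin-binding protein of the intercalated disc, by -0.45 ± 0.09 (adjusted p = 0.089). Of 20 calcium cycling genes 0 passed in limma and 5 had an unadjusted p under 0.05, each with the left higher, beside 8.57% of all genes. Likewise 5 separated with the left higher, beside 8.61% of all genes. Among these were Trdn, the triadin of the release complex (-0.22 ± 0.06, adjusted p = 0.19), and Camk2d, the cardiac calmodulin kinase (-0.19 ± 0.06, adjusted p = 0.23).

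The respiratory chain and citrate cycle list had 0 of 49 genes passing in limma and a median of -0.04, with 35 negative and 14 positive differences. An unadjusted p under 0.05 was found for 9, of which 8 left-higher, beside 15.0% and 8.57% of all genes. In 15 of the 49 the left arrays were above the right arrays in each state, and in 2 the reverse, beside 8.61% and 5.78% of all genes. The sizes were small. Dld, a subunit of the mitochondrial dehydrogenases, differed by -0.22 ± 0.06 and Ndufs1, a subunit of complex I, by -0.20 ± 0.06 (adjusted p = 0.20 and 0.21). Nqo1, a quinone reductase of the oxidative stress response, was the nearest to the threshold among the metabolic and stress lists, at -0.68 ± 0.11 (adjusted p = 0.057), with 8.61 to 9.09 on the right and 9.34 to 9.63 on the left.

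Of 46 TGF-beta, BMP and FGF genes 1 passed in limma, beside 0.0301% of all genes called right-higher. It was Mstn, which read close to the background of the arrays. An unadjusted p under 0.05 was found for 11, all right-higher, beside 6.42% of all genes. The difference was positive for 40, beside 54.3% of all genes. The median was 0.11, with 0.02 in sham, as over all genes, and 0.22 under obstruction. Of 35 Wnt and Notch genes 0 passed in limma, and 10 had an unadjusted p under 0.05 with the right higher, beside 6.42% of all genes. The difference was positive for 29 (median 0.14, with 0.13 in sham and 0.15 under obstruction). In both states 8 separated with the right higher and 0 with the left higher, beside 5.78% and 8.61% of all genes. Wif1, a secreted Wnt inhibitor, read 7.77 and 7.44 in sham right, 6.95 and 7.06 in clipped right, 6.58 and 6.25 in sham left, and 6.64 and 6.55 in constricted left ventricles. Right arrays were above left arrays throughout, and 0.80 ± 0.16 missed the threshold (adjusted p = 0.093), with 1.19 in sham and 0.41 under obstruction. Chrdl1, a BMP antagonist, differed by 0.35 ± 0.07 (adjusted p = 0.093).

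Extracellular matrix genes had medians of opposite sign in sham and under obstruction, a change of the list that was not tested. Of 60 measured 0 passed in limma, and 15 had an unadjusted p under 0.05 with the right higher, beside 6.42% of all genes. The difference was positive for 53, beside 54.3% of all genes, and the median of 0.19 joined -0.16 in sham with 0.51 under obstruction. Fbln1, the matrix glycoprotein fibulin 1, was right-higher in both states by array separation (0.32 and 0.83) with 0.58 ± 0.11 over both (adjusted p = 0.093). Without the second clipped and second sham left arrays the medians were -0.25 in sham and 0.45 under obstruction. Right ventricle array means of the list ran from 7.83 to 8.97 and left ones from 7.93 to 8.35.

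Of 13 measured Purkinje and conduction genes 2 passed, Slit2 and Etv1, beside 0.0301% of all genes called right-higher. All 13 had a positive difference, beside 54.3% of all genes, and the median was 0.18, with 0.29 in sham and 0.07 under obstruction. Sema3a, a guidance ligand that patterns cardiac nerves, differed by 0.43 ± 0.11 (adjusted p = 0.16) and the sodium channel Scn10a by 0.32 ± 0.10 (adjusted p = 0.21). Array means of the list ran from 6.84 to 7.22 on the right and from 6.65 to 6.82 on the left. Slit2 and Etv1 are members of this list, which was written with earlier results of these data known, so its counts are no independent evidence of a direction.

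Markers of the other cell types named here held no gene that passed in limma. An unadjusted p under 0.05 was found for 4 of 23 endothelial, 5 of 14 endocardial and 0 of 8 lymphatic genes. The same held for 1 of 32 macrophage, 3 of 16 epicardial, 3 of 18 smooth muscle and 4 of 15 nerve genes, beside 15.0% of all genes. The endocardial, epicardial and smooth muscle ones were all right-higher, beside 6.42% of all genes. Left-higher were 1 endothelial, 1 macrophage and 1 nerve gene, beside 8.57% of all genes. The 23 endothelial genes had a median of 0.04 (-0.07 in sham and 0.16 under obstruction), with Vwf, the von Willebrand factor, at 0.85 ± 0.22 (adjusted p = 0.17) and the water channel Aqp1 at -0.48 ± 0.12 (adjusted p = 0.17). The medians were 0.16 for 14 endocardial and valve genes, 0.14 for 8 lymphatic endothelial genes (-0.02 in sham and 0.29 under obstruction), 0.12 for 16 epicardial genes, 0.08 for 18 smooth muscle genes, -0.01 for 32 macrophage genes (-0.12 in sham and 0.13 under obstruction) and 0.04 for 15 nerve genes. The 4 genes taken as right heart candidates, Clu, Nbl1, Anxa7 and Fnbp1, did not pass, at -0.14 ± 0.11, 0.25 ± 0.11, -0.18 ± 0.07 and 0.03 ± 0.06.

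**Figure D4:**
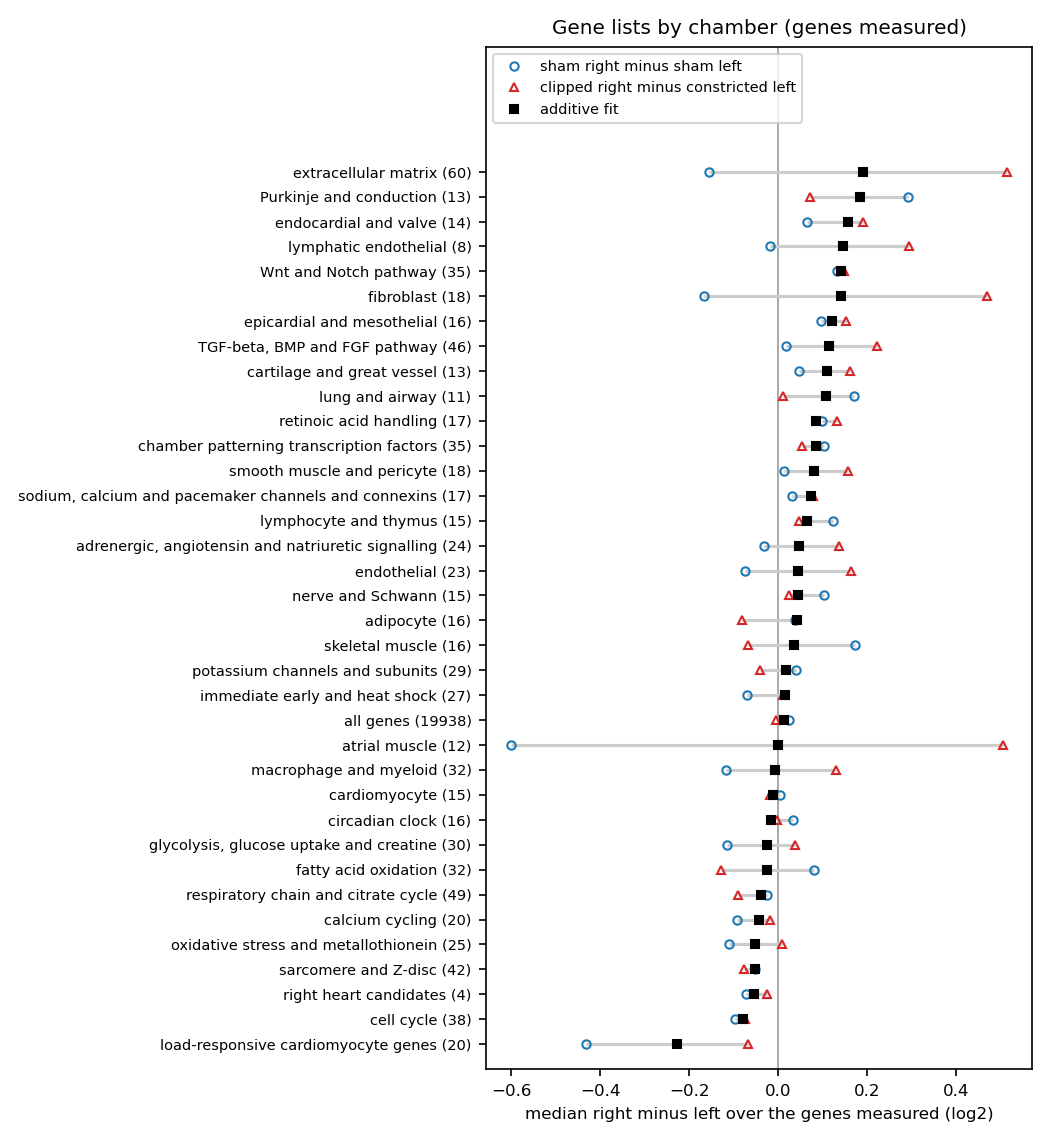
Median right minus left difference (log2) of each gene list, with the number of measured genes in brackets, for sham alone (circles), obstructed alone (triangles) and the additive fit (squares). Lists are ordered by the additive median, with all genes as a further row, and the erythroid list of 2 measured genes is not drawn. In 10 of the 36 lists the circle is left of 0 and the triangle right of 0, farthest apart for atrial muscle, extracellular matrix and fibroblast genes. In 6 lists the reverse holds.

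The right ventricles of 1 and 6 weeks, which took no part in the test, were set against the 4 left arrays of 3 weeks, and they differ from these in age and time as well as chamber. The left arrays are those that helped to choose the genes, so these counts are a description, and the share of all genes is not the value for genes with no difference. Among the 20 left-higher genes, 11 had all 4 of these right arrays below all 4 left arrays, beside 5.55% of all genes. Nrn1 lay between 6.6 and 7.07 and Myot between 8.71 and 9.38, both below all of their left arrays. The mean of the 4 arrays was below the left mean in 19 of the 20, and the exception was Mybpc2, at 7.97 to 9.12, which reached above its highest left array.

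Among the 6 right-higher genes, the mean was above the left mean in all 6, beside 45.0% of all genes, but only Sort1 had all 4 arrays above all left arrays, beside 4.44% of all genes. Slit2 lay between 7.13 and 7.53: 3 of the 4 arrays were above all left arrays and the lowest fell under the highest left array, 7.24. The arrays of 1 week correlated at 0.992, less than the mates of any other group here. Without the second array of 1 week, a check added after the data were seen, 11 left-higher and 2 right-higher genes lay wholly beyond the left arrays, beside 6.59% and 5.41% of all genes.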

How the data were processed

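Total RNA from ventricular tissue was measured on Affymetrix whole-transcript arrays. The authors deposited log2 expression values, made with RMA in Affymetrix Power Tools per the submitters' processing notes. Software versions, library files and the build used were not given in the sources used here. RMA scales all arrays to one distribution, so a shift of most genes between chambers would not show. Values ran from 1.71 to 14.78 and array medians from 6.32 to 6.40. Of 35556 probe sets, 21789 had a single gene in the platform annotation, 1621 had several and 12146 were unlisted. Each of 19938 genes was represented by its probe set of highest mean across the 12 arrays.

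limma 3.58.1 in R 4.3.3 fitted chamber and obstruction as additive terms to the 8 arrays of 3 weeks, with 5 residual and 5.07 prior degrees of freedom. A fit with 4 group means gave the contrasts within each state and the interaction. p-values were adjusted by Benjamini-Hochberg over 19938 genes at a threshold of 0.05. Lists (36, with 754 of 814 genes measured) are given by counts and medians without a set test. The 15 largest differences in each direction are named, with up to 4 genes per list, the load genes Nppa, Nppb, Acta1, Myh6 and Myh7, and the factors Tbx5, Hand1 and Hand2. The genes, lists and the doubted arrays were chosen with earlier results of these data known. The fit was tested on simulated data with independent noise for each gene. That noise holds no effect shared by the genes of an array, so the test does not bear on the dependence on single arrays. Of 20 alternatives tried, the closing section gives the effect. The number of arrays limits the precision.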

Additional observations from a re-analysis of the deposited data

Results flagged for a closer look

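Emp1 had a chamber difference of -0.97 in sham and 0.72 under obstruction, and the interaction term of 1.68 ± 0.12 passed (limma, adjusted p = 0.0043). Itgbl1 went from -1.14 to 0.58, an interaction of 1.72 ± 0.15 (adjusted p = 0.0086). In both genes the 2 sham right arrays were the lowest of the 8 and the 2 clipped right arrays the highest. On the right arrays of 1 and 6 weeks Emp1 read 9.92 to 11.03 and Itgbl1 8.04 to 9.89.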

How the results depend on the processing

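All 26 genes kept their direction in each alternative in which they were measured, while the number called moved (called genes, right-higher and left-higher, then genes of the interaction). Outside loess scaling and the mean over probe sets, the array separation in both states fixed that direction in advance, so it is no check. Leaving out genes below the median level gave 155 (25 and 130; interaction 28), a trended and robust variance prior 171 (23 and 148; 124), 4 group means 87 (23 and 64, of which 84 separated in both states) and all 12 arrays 66 (10 and 56, of which 64 separated; 0 in the interaction at an adjusted p of 0.05). Ignoring obstruction left 5 (1 and 4). The first 3 of these settings shared 56 genes, 44 of them left-higher and 19 of them from the 26. Replicate numbers were not taken to pair the samples, since the labels do not tie them to hearts and deviations of same-numbered arrays correlated at 0.113 between sham ventricles and -0.005 between obstructed ones. A replicate block gave 11 (2 and 9), and a block within state 4 (0 and 4). Leaving out the second clipped and second sham left arrays together gave 5 (0 and 5; interaction 5). Leaving out each array in turn gave 4 to 42 called, 0 to 12 right-higher, 4 to 30 left-higher, 4 to 42 that separated in both states, and 0 to 99 in the interaction, with 99 without the first clipped array and 15 without the second sham left array. Genes with an unadjusted p under 0.05 in the interaction numbered 2977 in the 8-array fit, 2381 with all 12 arrays, and 3162 or 2366 without the first or second sham right array (limma). A 2-fold minimum left 3 genes, and an unadjusted p in each state called 386. The cause of these shifts was not tested. Loess scaling (24 called, interaction 3) and the mean over probe sets (23) stayed within 1.5 times in number. Of the 26 genes, 18 were called after loess scaling and 23 with the mean over probe sets. The difference of Hand1 turned to 0.0075 without the second clipped and second sham left arrays and to 0.048 without the second constricted array. Over the arrays left out in turn it ran from -0.077 to 0.048 for Hand1 and from -0.32 to 0.05 for Emp1. That of Emp1 turned to 0.045 and 0.042 without the first or second sham left array and to 0.045 and 0.042 without the first or second sham right array. Of 947 values for 53 uncalled genes named here, 31 were called. Of 645 list medians 634 moved by less than 1 SD.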
